A study of Mus musculus with 4 samples.

Results

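Genes of the Wnt pathway were read in podoplanin-deficient and wild-type mouse embryonic fibroblasts. The set has 36 named genes that act at the cell surface or report on the pathway: ligands, receptors, R-spondins, secreted antagonists and feedback or target genes. Members were the probe sets whose platform gene symbol is one of the 36 names, with the brightest taken where a symbol has several. This rule found 35 of the 36 among 19751 genes tested. Tcf7 is not listed in the platform annotation given here and was named from the deposited description of its probe set instead, so it is given apart from the 35. No filter on low values was applied, so all 35 entered the tests.

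The Pdpn KO cultures (genotype Pdpn-/-, 2 arrays) were set against WT cultures (2 arrays), all labelled as female C57BL6/J cells. Embryos were collected from embryonic day 9.5 to 13.5, with no stage given for the single cultures. The cells were cultured for 7 to 10 days in medium with 10% serum, and cells bearing CD31 or CD45 were then removed with magnetic beads. The labels call the arrays biological replicates without saying how many embryos or litters stand behind each, so a p-value here reflects only how these 4 arrays vary, which may in part be technical. How the Pdpn allele was made is not described in the labels.

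Wnt proteins are secreted lipid-modified ligands that bind Frizzled receptors. Together with the co-receptors Lrp5 and Lrp6 they stabilise beta-catenin, which acts with factors of the Tcf and Lef family on target genes such as Axin2. Other Wnts, Wnt5a and Wnt11 among them, mainly act without beta-catenin through Ror and Ryk receptors on cell polarity and movement, and R-spondins keep Frizzled receptors at the surface by holding off the ligases Znrf3 and Rnf43. In the embryo these signals pattern limb and body wall mesenchyme, from which such fibroblasts are grown.

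Pdpn itself read 178.7 and 201.0 in Pdpn KO replicates 1 and 2, against 4486 and 3106 in WT replicates 1 and 2 (log2 difference -4.30 ± 0.19, SE, n = 2 arrays per genotype, limma adjusted p = 0.00501). These and all values below are the authors' RMA intensities on a linear scale, with array medians between 283.5 and 290.3 over all probe sets. All 4 samples are labelled female, yet Xist read 48.85 in Pdpn KO replicate 1 and 1831 in Pdpn KO replicate 2, against 48.6 and 57.4 in WT. The Y-linked Eif2s3y read 1673 and 35.1 in Pdpn KO, against 1534 and 1474 in WT. Only Pdpn KO replicate 2 thus read as its label says, and the other 3 arrays went against theirs, so results are also given without Pdpn KO replicate 2, which leaves arrays of 1 pattern. Pdpn KO replicate 2 also stood apart in position genes: relative to the WT mean, the median log2 level of 13 posterior Hox genes was 0.15 and 0.72 in Pdpn KO replicates 1 and 2, and that of 12 anterior Hox genes 0.16 and -0.56. The posterior difference was not confined to that array. Both Pdpn KO arrays were above both WT arrays for 8 of the 13 posterior genes (14.6% of all genes) and below them for 1 (9.74%). The 12 anterior genes all overlapped. Among 10 fibroblast genes Vim was bright, from 17537 to 18278 on all arrays. Lum and Fap of the same list were dim, from 47.6 to 121.7 and from 96.1 to 185.7. The endothelial gene Pecam1 read from 120.5 to 153.9 and the blood cell gene Ptprc from 80.6 to 94.9. Other markers of these cells were brighter or differed: the summed intensity of 6 endothelial genes was 1164 and 1102 in Pdpn KO, against 1499 and 1222 in WT, with Emcn at 196.5 and 176.9 in Pdpn KO, against 458.8 and 351.0 in WT (log2 difference -1.11 ± 0.16, SE; limma adjusted p = 0.57, unadjusted p = 0.000333). Of the 6 endothelial genes, only Emcn was lower in Pdpn KO without overlap, and their median log2 difference was -0.02. Tek was higher without overlap, at 129.3 and 140.6 in Pdpn KO, against 122.4 and 108.1 in WT. Pecam1, Cdh5 and Tie1 overlapped. Kdr read from 260.0 to 474.8 and the blood cell gene Cd68 from 377.0 to 672.0, both with overlap. Of 4 mesothelial genes, Msln read 1024 and 872.5 in Pdpn KO, against 610.3 and 486.5 in WT (0.79 ± 0.16, SE; limma adjusted p = 1, unadjusted p = 0.00185), while Upk3b, Wt1 and Lrrn4 had differences below 0. Of 4 cartilage and bone genes, Col2a1 read from 1139 to 1565 and Sox9 from 1311 to 1699 over the arrays. Acan read from 135.3 to 337.1 and Sp7 from 142.1 to 159.3. The part of any of these cells in the results below was not tested.

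None of the 35 Wnt genes differed between the genotypes at a limma adjusted p under 0.05, where 0.0101% of all genes did. At an unadjusted p under 0.05 in limma, 3 of the 35 stood out, against 2.01% of all genes: Rspo2 and Rspo3 had higher values in Pdpn KO (1.5% of all genes did) and Wnt5a lower ones (0.511% did). Values without overlap between genotypes were found for 9 of the 35 genes (25.7%), close to the 24.4% of all genes; 6 were higher in Pdpn KO (14.6% of all genes) and 3 lower (9.74%). A log2 difference beyond 0.5 in size was seen for 3 of the 35 (1.03% of all genes), all of them above 0 (0.765%): Rspo2, Rspo3 and Ccn5. The median log2 difference over the 35 genes was 0.06, against 0.00 over all genes, and 22 of the 35 (62.9%) had a difference above 0, against 51.7% of all genes. Without WT replicate 1 that count was 13 and the median -0.03, and without WT replicate 2 it was 28. With 4 arrays split 2 against 2, an exact two-sided permutation test of a single gene cannot go below p = 0.333, so each p-value here leans on the spread that limma borrows from all genes.

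**Figure D1:**
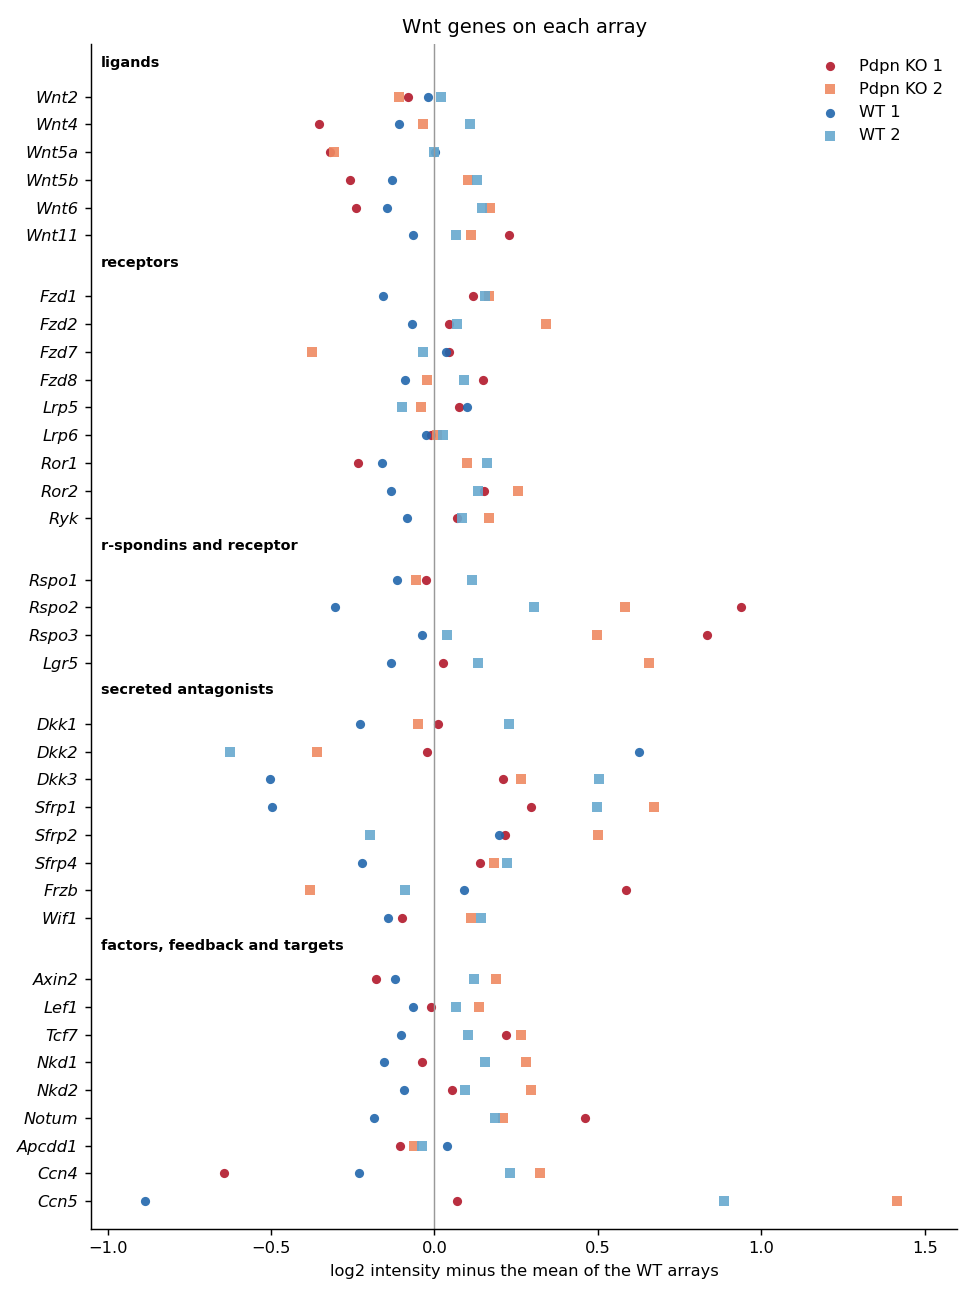
Log2 intensity of each Wnt gene on each array (x axis) minus the mean of the WT arrays, by role (rows); red circles and orange squares are Pdpn KO replicates 1 and 2, dark blue circles and light blue squares WT replicates 1 and 2. Rspo2 and Rspo3 have both Pdpn KO marks right of both WT marks, Wnt5a has both left of them, and for most other genes the marks of the genotypes mix.

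Part of the spread followed the replicate number rather than the genotype. For 19 of the 35 genes (33.9% of all genes) both arrays numbered 2 read higher than both arrays numbered 1, and for 4 (25.4% of all genes) they read lower. For 26 of the 35 genes the WT arrays differed from each other by more than the genotypes did, as they did for 70.2% of all genes. The summed intensity of 10 fibroblast markers moved alike, with 36842 and 44180 in Pdpn KO replicates 1 and 2, against 36745 and 45038 in WT replicates 1 and 2. Not every marker did. Vim was nearly flat, at 17537 and 17684 in Pdpn KO, against 17995 and 18278 in WT. Pdgfra went down in Pdpn KO, from 2027 to 1497, and up in WT, from 1256 to 1679. What arrays of the same number share is not given in the labels.

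Promoter sequence is shown for the members whose 250 bases before the gene start hold a chosen form of the core letters that Tcf and Lef factors recognise. Axin2 is shown beside them as the usual reporter of beta-catenin activity, so that these genes' values can be read beside their sequence. The sequences are RefSeq's (GRCm38.p6), 5′ to 3′ on the strand of the gene, with CTTTGAT or CTTTGAA, or their reverse complements ATCAAAG and TTCAAAG, in capitals. Both strands were searched, for these words alone. Other forms of the core, such as the ctttgtt in the Dkk1 window below, were not searched and are not in capitals. Of the 36 members 21 had an entry, with 28 windows in all, and 3 windows (10.7%) held a match, against 7.48% of 32851 windows of all genes. A match describes letters only, and says nothing of binding.
Wnt11, chr7:98834862-98835111, plus strand: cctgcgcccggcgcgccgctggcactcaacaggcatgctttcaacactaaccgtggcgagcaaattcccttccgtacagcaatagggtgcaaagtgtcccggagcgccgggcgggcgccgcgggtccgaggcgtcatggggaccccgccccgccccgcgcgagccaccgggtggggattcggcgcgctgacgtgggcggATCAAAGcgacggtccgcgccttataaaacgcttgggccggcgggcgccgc
Wnt5b, chr6:119449387-119449636, minus strand: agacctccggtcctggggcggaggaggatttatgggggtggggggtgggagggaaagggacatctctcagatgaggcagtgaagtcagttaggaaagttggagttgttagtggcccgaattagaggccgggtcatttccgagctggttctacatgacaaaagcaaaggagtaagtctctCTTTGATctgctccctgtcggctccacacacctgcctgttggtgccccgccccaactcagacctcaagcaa
Dkk1, chr19:30549497-30549746, minus strand: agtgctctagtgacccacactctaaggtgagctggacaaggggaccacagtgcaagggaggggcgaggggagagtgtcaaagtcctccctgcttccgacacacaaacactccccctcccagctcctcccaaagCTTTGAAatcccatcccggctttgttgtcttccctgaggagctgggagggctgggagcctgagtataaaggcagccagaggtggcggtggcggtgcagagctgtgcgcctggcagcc
Axin2, chr11:108920099-108920348, plus strand: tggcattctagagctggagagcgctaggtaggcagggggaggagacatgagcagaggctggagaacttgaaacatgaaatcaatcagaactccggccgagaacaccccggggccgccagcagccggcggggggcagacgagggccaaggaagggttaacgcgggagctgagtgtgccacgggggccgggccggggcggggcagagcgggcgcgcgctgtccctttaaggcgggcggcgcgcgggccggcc
The matches end 44 bases before the start in Wnt11, 64 in Wnt5b and 110 in Dkk1, and the Axin2 window holds none. The log2 difference between the genotypes was 0.17 for Wnt11, -0.08 for Wnt5b, -0.02 for Dkk1 and 0.00 for Axin2. Rspo2, Rspo3 and Wnt5a had no entry and were not searched, and the other window of Wnt11 and the other 2 of Wnt5b hold no match.

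Among the ligands, Wnt5a stood apart with values that were lower and close together. Wnt5a, a ligand of Ror receptors that drives limb and axis outgrowth, read 2594 and 2617 in Pdpn KO, against 3246 and 3234 in WT. The replicates were almost equal and the genotypes did not overlap, a 1.24-fold lower geometric mean in Pdpn KO (log2 difference -0.31 ± 0.11, SE, n = 2 arrays per genotype). The 95% interval was from -0.57 to -0.05 in limma, but over all genes the limma adjusted p was 1. The difference lay between -0.32 and -0.31 with any 1 array left out, Pdpn KO replicate 2 among them.

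Wnt11, a ligand of cell movement and a relative of Wnt5a in its signalling, read 424.3 and 391.2 in Pdpn KO, against 345.8 and 379.0 in WT. The 2 Pdpn KO arrays were the highest of the 4, by a log2 difference of 0.17 ± 0.12 (SE; limma adjusted p = 1). Wnt2, which in the mouse supports lung and placental growth, read 260.2 and 255.7 in Pdpn KO, against 271.6 and 279.5 in WT, without overlap but by only -0.09 ± 0.11 (SE; limma adjusted p = 1). The other ligands overlapped. Wnt4, a ligand of kidney and gonad development, differed by -0.19 ± 0.15 (SE), and its dimmer probe set by -0.09 ± 0.11. Wnt5b, the close relative of Wnt5a, read 300.4 and 385.3 in Pdpn KO, against 328.1 and 393.3 in WT, high in both replicates 2. Wnt6 did the same, with 157.6 and 209.4 in Pdpn KO, against 168.3 and 205.6 in WT. Of the 6 ligands, 5 had a difference below 0, where 51.7% of all genes were above 0, and Wnt5a and Wnt2 were lower without overlap (9.74% of all genes were). Ligands outside the set did not share this direction: 7 of those 13 had a difference above 0. Wnt5b and Wnt6 turned direction when 1 array was left out.

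**Figure D2:**
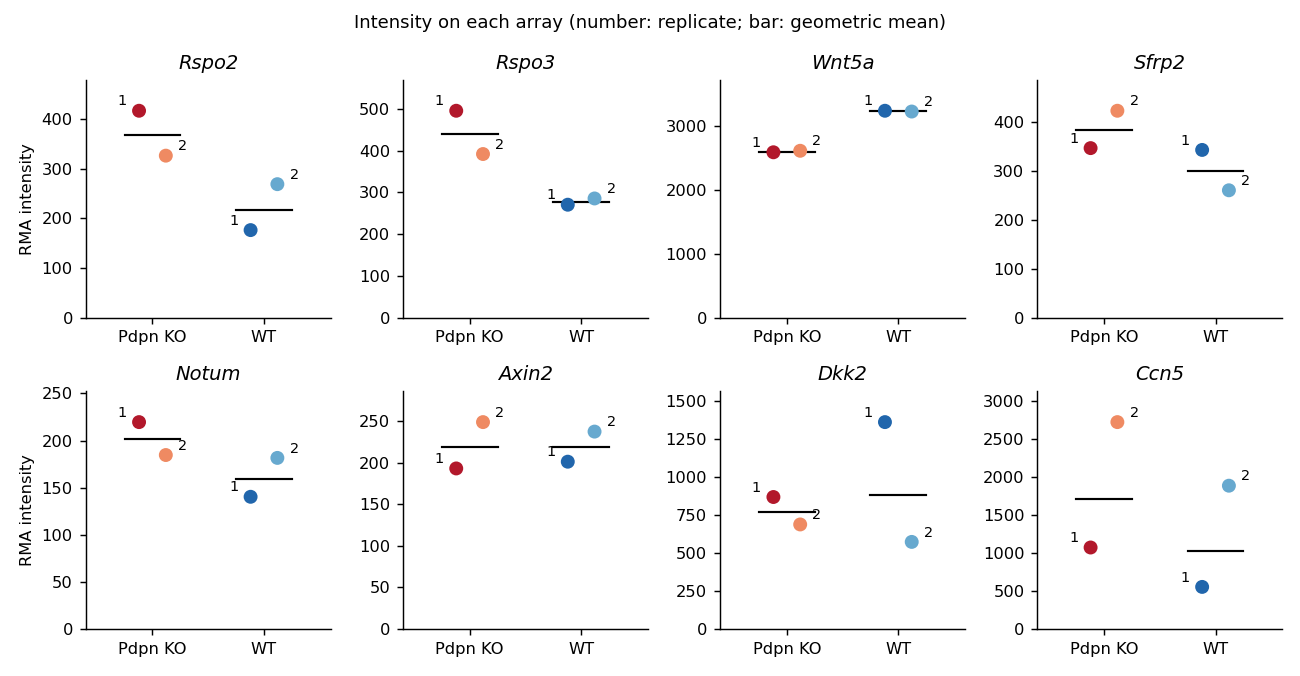
RMA intensity (y axis, from 0) of 8 Wnt genes on each array, with Pdpn KO left of WT; the number beside a point is the replicate and the bar the geometric mean. Rspo2, Rspo3 and Wnt5a separate by genotype, Axin2 has almost equal means, and Dkk2 and Ccn5 spread more within than between genotypes.

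Rspo3 and Rspo2 had the smallest unadjusted p-values of the 35 genes in limma, while Rspo1 overlapped between the genotypes. Rspo3, a secreted R-spondin of mesenchyme and vessels, read 495.4 and 391.7 in Pdpn KO, against 270.3 and 285.3 in WT. Both Pdpn KO arrays were above both WT arrays, and the WT arrays were nearly equal, a 1.59-fold higher geometric mean in Pdpn KO (log2 difference 0.67 ± 0.15, SE, n = 2 arrays per genotype; 95% interval 0.32 to 1.02; limma adjusted p = 1, unadjusted p = 0.00323). Without Pdpn KO replicate 2 the difference was 0.83 and passed at the edge (limma adjusted p = 0.04999). The Pdpn KO side is then 1 array, assumed to vary like the WT pair, and 50 genes passed over the whole table in place of 2. The difference was 0.50 without Pdpn KO replicate 1, 0.63 without WT replicate 1 and 0.70 without WT replicate 2, where it did not pass.

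Rspo2, an R-spondin needed for limb and lung growth in the mouse, read 416.9 and 326.4 in Pdpn KO, against 176.3 and 268.9 in WT. The genotypes did not overlap, but WT replicate 1 was much the lowest array, and the mean was 1.69-fold higher in Pdpn KO (log2 difference 0.76 ± 0.22, SE, n = 2 arrays per genotype; 95% interval 0.22 to 1.30; limma adjusted p = 1, unadjusted p = 0.0136). Without WT replicate 2 the difference was 1.06 and passed (limma adjusted p = 0.0353). The WT side is then the lowest of the 4 arrays alone, assumed to vary like the Pdpn KO pair, and 53 genes passed over the whole table. Without WT replicate 1 the difference was 0.46 and without Pdpn KO replicate 1 it was 0.58, neither of them past the threshold. Without Pdpn KO replicate 2 it was 0.94 (limma adjusted p = 0.0623). Rspo2 and Rspo3 were each highest in Pdpn KO replicate 1. The median of the posterior Hox genes was highest in Pdpn KO replicate 2 and that of the anterior Hox genes in Pdpn KO replicate 1, and the part of embryonic position in the R-spondin values was not tested.

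Rspo1, another R-spondin, known for its role in ovary development, did not share this pattern. It read 215.0 and 210.3 in Pdpn KO, against 202.2 and 237.1 in WT, with the Pdpn KO values inside the WT range. Lgr5, a receptor of R-spondins and itself a Wnt target, read 113.8 and 176.2 in Pdpn KO, against 102.0 and 122.4 in WT (log2 difference 0.34 ± 0.22, SE; limma adjusted p = 1). Only Pdpn KO replicate 2 was above the WT range for Lgr5, and without it the difference was 0.03. Lgr5 was dim, where the lower quartile of all probe sets lay between 103.4 and 114.3 over the arrays. RMA leaves no detection call for it.

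**Figure D3:**
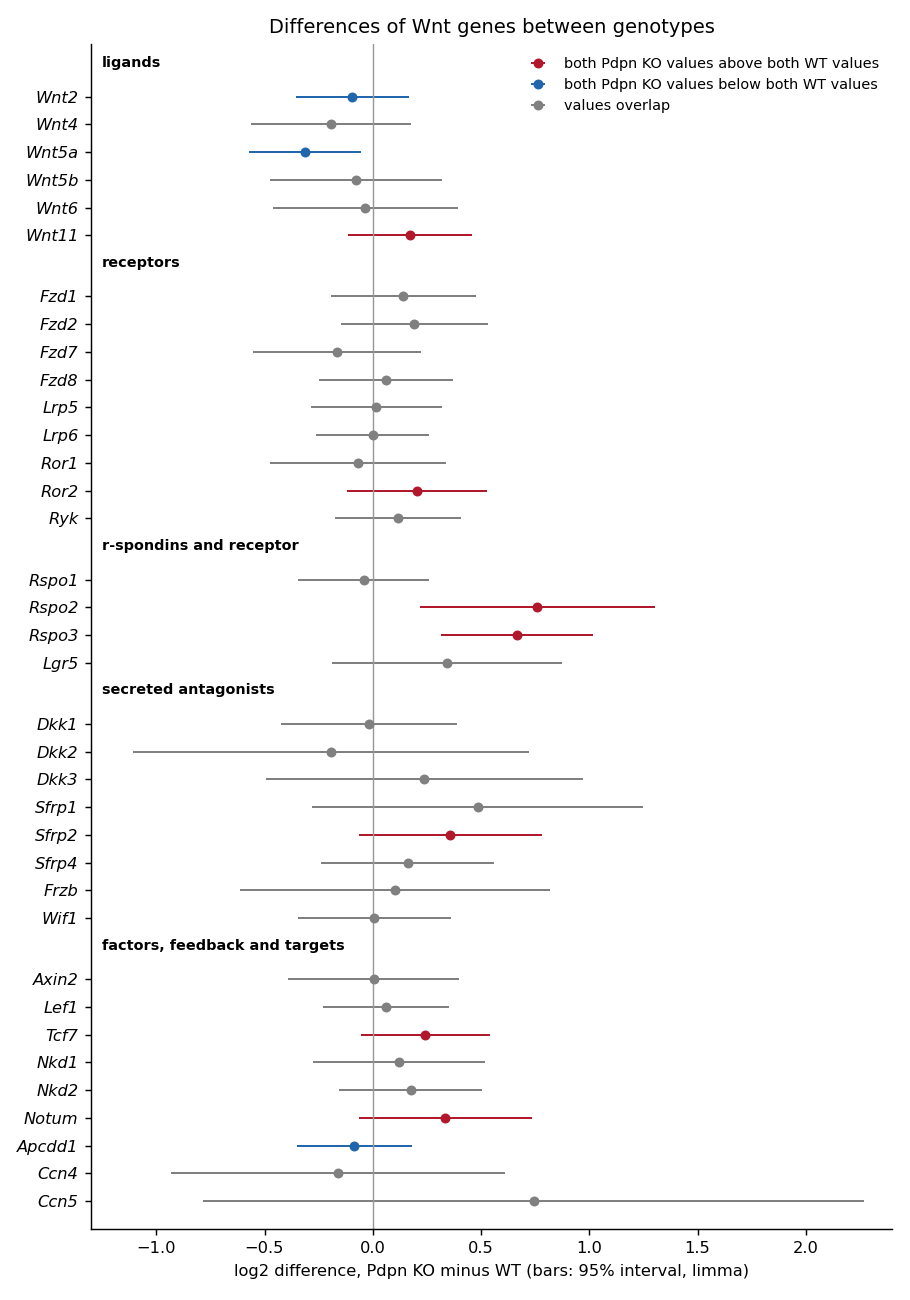
Log2 difference between Pdpn KO and WT for each Wnt gene (points, x axis) with its 95% interval from limma (bars), by role (rows); red marks genes whose Pdpn KO values both lie above the WT values, blue those below, grey those that overlap. The intervals of Rspo2, Rspo3 and Wnt5a lie off 0 before adjustment for multiple tests, and those of Dkk2, Sfrp1, Ccn4 and Ccn5 are wide.

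None of the receptors differed between the genotypes at an unadjusted p under 0.05 in limma. Lrp6, the co-receptor needed for beta-catenin signalling, read 1560 and 1580 in Pdpn KO, against 1542 and 1599 in WT. Its log2 difference was 0.00 ± 0.11 (SE, 95% interval -0.26 to 0.26). Lrp5, its relative, differed by 0.02 ± 0.13 (SE). The Frizzled receptors all overlapped: Fzd1 differed by 0.14 ± 0.14, Fzd2 by 0.19 ± 0.14, Fzd7 by -0.16 ± 0.16 and Fzd8 by 0.06 ± 0.13 (SE, n = 2 arrays per genotype, limma adjusted p = 1 for each). Fzd7 read 3036 and 2272 in Pdpn KO, against 3020 and 2870 in WT, so a single array, Pdpn KO replicate 2, set its difference, which was 0.04 without it.

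Receptors of beta-catenin-independent signalling gave 1 member without overlap, the only one of the 9 receptors (11.1%, against 24.4% of all genes). Ror2, a receptor tyrosine kinase that binds Wnt5a, read 1413 and 1517 in Pdpn KO, against 1159 and 1394 in WT (log2 difference 0.20 ± 0.13, SE; limma adjusted p = 1). Pdpn KO replicate 1 and WT replicate 2 differed by little, so the separation is narrow. Ror1, its relative, differed by -0.07 ± 0.17 and Ryk, an atypical kinase receptor for Wnts, by 0.12 ± 0.12 (SE), and both overlapped. Of the 9 receptors, 6 had a difference above 0 (51.7% of all genes did).

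Most secreted antagonists overlapped between the genotypes, several with wide gaps between replicates. Sfrp2, a secreted Frizzled-related protein that binds Wnts, was the only one of the 8 without overlap (12.5%, against 24.4% of all genes). It read 347.4 and 424.1 in Pdpn KO, against 343.7 and 261.0 in WT. Its lower Pdpn KO value was almost that of WT replicate 1, and its log2 difference was 0.36 ± 0.17 (SE; limma adjusted p = 1). Sfrp1, of the same family, read 991.2 and 1286 in Pdpn KO, against 572.2 and 1139 in WT. WT replicate 1 was far the lowest, and without it the difference of 0.48 ± 0.32 (SE) became -0.01. Dkk3, a divergent Dickkopf protein, read 1237 and 1283 in Pdpn KO, against 753.5 and 1517 in WT, and Dkk2, which binds Lrp6, read 866.5 and 686.2 in Pdpn KO, against 1359 and 571.6 in WT. For both, the WT arrays enclosed the Pdpn KO arrays, in opposite order.

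Frzb, a secreted Frizzled-related protein of cartilage, read 401.0 and 204.9 in Pdpn KO, against 284.3 and 250.7 in WT. Here the Pdpn KO arrays enclosed the WT arrays. Dkk1, an inhibitor of Lrp6 and a known target of beta-catenin, differed by -0.02 ± 0.17, Sfrp4 by 0.16 ± 0.16 and Wif1, a secreted Wnt-binding inhibitor, by 0.01 ± 0.15 (SE, n = 2 arrays per genotype; limma adjusted p = 1 for each). Wif1 and Sfrp4 read from 108.8 to 156.4 on all arrays and Dkk1 from 141.4 to 194.2. RMA leaves no detection call that would say whether such dim probe sets were above background.

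**Figure D4:**
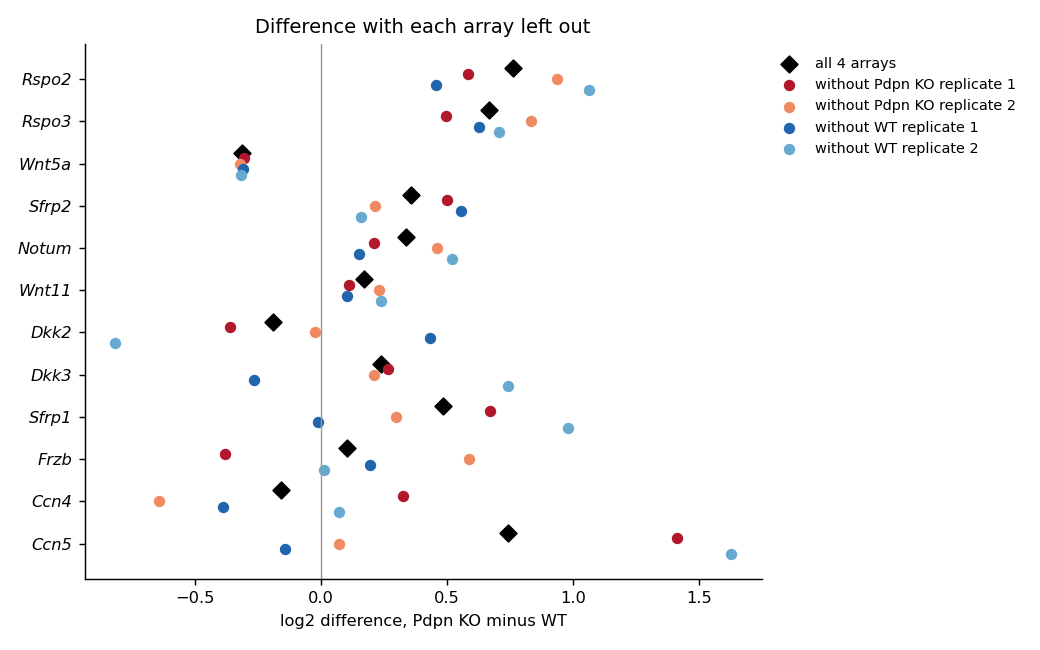
Log2 difference between Pdpn KO and WT (x axis) for 12 Wnt genes with all 4 arrays (diamonds) and with each array left out in turn (circles, coloured by the array left out). Rspo2, Rspo3, Sfrp2, Notum and Wnt11 stay right of 0 and Wnt5a left of it, while Dkk2, Dkk3, Sfrp1, Frzb, Ccn4 and Ccn5 have points on both sides.

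Axin2, Lef1, Nkd1 and Nkd2 overlapped between the genotypes, while Tcf7, Notum and Apcdd1 did not, and none of them had an unadjusted p under 0.05 in limma. Without Tcf7, 2 of the 8 factors, feedback genes and targets did not overlap (25%, against 24.4% of all genes). Axin2, a scaffold of the beta-catenin destruction complex and a direct feedback target, read 193.2 and 248.9 in Pdpn KO, against 201.3 and 237.5 in WT, high in both replicates 2. Its log2 difference was 0.00 ± 0.16 (SE; limma adjusted p = 1), with a 95% interval from -0.39 to 0.40, which reaches to 1.32-fold higher in Pdpn KO. Lef1, a factor that carries beta-catenin to DNA, differed by 0.06 ± 0.12, and Nkd1 and Nkd2, feedback inhibitors that bind Dishevelled, by 0.12 ± 0.16 and 0.18 ± 0.14 (SE). Tcf7, a factor of the same family as Lef1, read 216.9 and 223.7 in Pdpn KO, against 173.6 and 199.8 in WT. Its values did not overlap, with a log2 difference of 0.24 ± 0.12 (SE) in a fit over all 24679 probe sets (limma adjusted p = 1).

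Notum, a secreted enzyme that removes the lipid from Wnts, read 219.6 and 184.6 in Pdpn KO, against 140.3 and 181.6 in WT. The genotypes did not overlap, but Pdpn KO replicate 2 and WT replicate 2 were almost equal (log2 difference 0.34 ± 0.17, SE; limma adjusted p = 1). Apcdd1, a membrane inhibitor of Wnt signalling, read 533.0 and 548.9 in Pdpn KO, against 588.8 and 558.9 in WT, lower without overlap by -0.08 ± 0.11 (SE). Ccn5, a matricellular protein of the Ccn family, spread the most within genotypes, with 1071 and 2721 in Pdpn KO, against 552.7 and 1884 in WT. Both replicates 2 were far above both replicates 1, and the log2 difference of 0.74 ± 0.63 (SE) had an interval from -0.78 to 2.27. Ccn4, its relative and a Wnt-induced gene, read 1475 and 2887 in Pdpn KO, against 1967 and 2704 in WT, in the same order of replicates.

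The remaining pathway was covered by a list of 76 other genes, of which 0 passed over all genes in limma, and 3 had an unadjusted p under 0.05, all of them higher in Pdpn KO (1.5% of all genes were). Their median log2 difference was 0.03, and 19 did not overlap between the genotypes, against 24.4% of all genes. Wnt2b, a ligand of mesoderm, read 382.1 and 373.5 in Pdpn KO, against 287.8 and 299.4 in WT (log2 difference 0.36 ± 0.11, SE; limma adjusted p = 1). Wnt10a, a ligand of skin and tooth development, read 1024 and 971.9 in Pdpn KO, against 622.3 and 829.5 in WT (0.47 ± 0.16). Daam2, a formin that works downstream of Dishevelled, read 282.4 and 319.0 in Pdpn KO, against 227.6 and 233.1 in WT (0.38 ± 0.12). For all 3 genes both Pdpn KO arrays were above both WT arrays.

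Among surface proteins Fzd4, a Frizzled of vessel growth, differed by 0.28 ± 0.12 and Rnf43, the ligase that R-spondins hold off, by 0.21 ± 0.14 (SE; limma adjusted p = 1 for each), and 13 of the 14 other receptors and modulators had a difference above 0, against 51.7% of all genes. This was the most one-sided of the 7 groups of the list: over all 76 genes 45 were above 0 (59.2%), and of the 24 cytoplasmic and nuclear genes 11 (45.8%). For 13 of the 14 receptors and modulators the WT arrays differed from each other by more than the genotypes did (70.2% of all genes). Their median log2 difference was 0.08, and 2 of the 14 did not overlap (14.3%, against 24.4% of all genes). Relative to the WT mean, their median log2 level was 0.096 and 0.106 in Pdpn KO replicates 1 and 2. In WT replicates 1 and 2 it was -0.110 and 0.110, so WT replicate 2 was level with Pdpn KO and only WT replicate 1 lay lower. Cthrc1, a secreted protein that can bind Wnts and Frizzled, read 1897 and 2499 in Pdpn KO, against 1119 and 1953 in WT, with overlap (0.56 ± 0.27, SE). Dkk4 differed by -0.19 ± 0.13, Porcn, which adds the lipid to Wnts, by 0.19 ± 0.13 and Wls, which carries them to the surface, by -0.04 ± 0.13 (SE). The 24 cytoplasmic and nuclear genes had a median of -0.01, with Bcl9, a co-activator of beta-catenin, at 0.23 ± 0.13 and Apc, of the destruction complex, at -0.17 ± 0.12 (SE). Celsr2, a polarity cadherin, differed by 0.09 ± 0.11, and of 8 other common targets Twist1, a mesenchymal factor, by 0.15 ± 0.11 and Cd44, the hyaluronan receptor, by -0.14 ± 0.14 (SE). None of these passed the threshold.

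**Figure D5:**
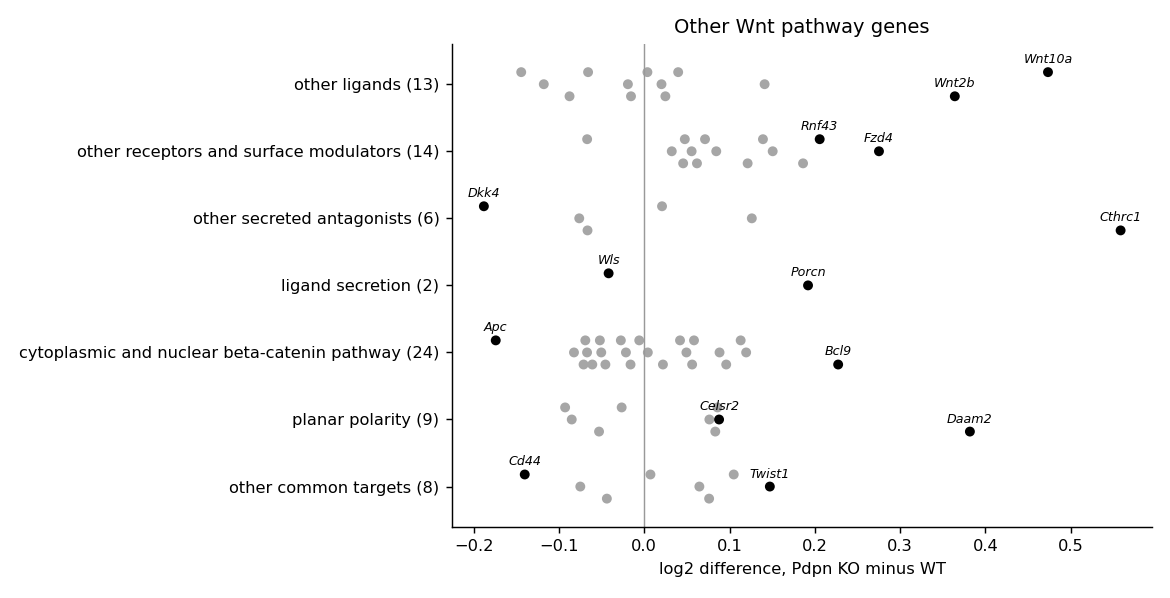
Log2 difference between Pdpn KO and WT (x axis) of 76 other Wnt pathway genes by role (rows, with the number of genes); black points with names are the 2 genes of smallest unadjusted p in each row. Most points lie within 0.2 of 0, and Wnt2b, Wnt10a, Daam2 and Cthrc1 lie to the right.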

How the data were processed

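Each of the 4 cultures was hybridised to a 1-colour array. The authors deposited linear intensity values; RMA is the tool that the submitters' processing notes name, with no version. RMA compresses dim values, so fold changes of dim genes are understated, and the number of arrays limits the precision. Gene names came from the platform annotation, which gives 1 symbol for 21354 of the 24679 probe sets, several for 1275 and none for 2050. Log2 was taken with no pseudocount or filter, and the brightest probe set was kept for each symbol.

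Pdpn KO was compared with WT in limma 3.58.1 under R 4.3.3 (2-group design, lmFit, eBayes, two-sided, Benjamini-Hochberg over 19751 genes, threshold 0.05). The ± is the limma standard error. On simulated data with 200 changed genes among 19751, the fit called 2.09% of 1.5-fold, 62.2% of 2-fold and 97.9% of 4-fold changes. The simulated arrays varied independently of each other, whereas same-numbered arrays of these data deviated together (r = 0.58). Only 2 genes passed in the data, and the adjusted p depends on how many genes change. These shares therefore cannot be carried over to the data. The members, the list of other genes and the tests were chosen with earlier results of these data known. All members were described, and of each group of other genes those past the threshold and the 2 of smallest unadjusted p. Alternatives were the other deposited table, 2 rescalings, 2 filters on dim genes, another prior, probe sets averaged per gene, a replicate block, each array left out, and, chosen after seeing the data, all probe sets as rows. Figures were drawn with matplotlib 3.10.9.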

Additional observations from a re-analysis of the deposited data

How the results depend on the processing

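With 4 arrays, the number of genes called over the whole table was 2. It was 1 without the dimmer 50% of genes, 9 with a robust intensity-dependent prior, 34 with the replicate block, 1 with all probe sets as rows and between 5 and 100 with 1 array left out. None of the 35 Wnt genes and none of the 76 other Wnt genes passed in these fits, except Rspo3 without Pdpn KO replicate 2 (adjusted p = 0.04999) and Rspo2 without WT replicate 2 (adjusted p = 0.0353, limma), so the count of members called ran from 0 to 1 with 1 array left out. Members at an unadjusted p under 0.05 numbered 6 with the replicate block (8.49% of all genes) and 4 to 7 with 1 array left out (1.94% to 4.23% of all genes). Members without overlap numbered 18 to 27 of 35 there, where 60.7% to 63.8% of all genes do not overlap, since 3 arrays overlap less than 4. Same-numbered arrays deviated together across genes (r = 0.58), but the labels do not pair them; in the block fit Rspo3 had a limma adjusted p of 0.135, Wnt5a 0.327 and Rspo2 0.384.

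The median of the 35 genes lay between -0.03 and 0.17 over all alternatives, and that of posterior and anterior Hox genes between 0.15 and 0.72 and between -0.56 and 0.16 with 1 array left out. Median centring turned Lrp5 to -0.0132, Wif1 to -0.0236 and Axin2 to -0.0259, and quantile normalisation turned Lrp5 to -0.0239. With 1 array left out the direction of these genes was not fixed, and their log2 differences ran as follows: Wnt5b -0.26 to 0.10, Wnt6 -0.24 to 0.17, Fzd8 -0.0275 to 0.15, Lrp5 -0.0838 to 0.12, Lrp6 -0.0272 to 0.0254, Ror1 -0.23 to 0.0997, Frzb -0.38 to 0.59, Ccn4 -0.64 to 0.32, Fzd7 -0.37 to 0.0443, Dkk1 -0.25 to 0.21, Wif1 -0.14 to 0.15, Axin2 -0.18 to 0.19, Lef1 -0.0111 to 0.14, Nkd1 -0.0376 to 0.28, Wls -0.16 to 0.0756, Cd44 -0.29 to 0.007, Fzd1 -0.0147 to 0.30, Dkk2 -0.82 to 0.43, Dkk3 -0.27 to 0.74, Sfrp1 -0.013 to 0.98, Sfrp4 -0.0611 to 0.38, Ccn5 -0.14 to 1.63, Rspo1 -0.16 to 0.0729. None of these differences had passed, and the cause of the turns was not tested. Rspo2, Rspo3 and Wnt5a kept their direction in every alternative that tested them; Rspo2 was not tested without the dimmer 50% of genes.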
